A study of Mus musculus with 2 samples.

Results

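GABA-A receptor genes encode the subunits of the ligand-gated chloride channels that give fast inhibition in the brain, and 7 of them were followed through H3K9me2 peak lists of activated mouse B cells. They were chosen by name, with earlier results of these data known. The genes were Gabrg1, Gabra2, Gabra4 and Gabrb1 on chromosome 5, Gabra6 and Gabrb2 on chromosome 11, and Gabra5 on chromosome 7. They are 7 of 21774 protein-coding genes of RefSeq, and their windows, each a gene extended by 2 kb at either end, held 35 of 32149 KO peaks and 30 of 31623 WT peaks. The KO library came from activated B cells labelled jmjd1c B KO and the WT library from wild-type activated B cells, both of C57BL/6 mice. H3K9me2, a dimethyl mark of repressed chromatin, was mapped by CUT&Tag, a method that tethers a DNA-cutting transposase to the mark through an antibody. The labels give neither the driver of the B cell knockout, nor the means of activation, nor the number of mice.

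Jmjd1c is a jumonji-domain protein related to H3K9 demethylases, and the question behind the design is where H3K9me2 changes in its absence. The KO list rested on 34502392 tags and the WT list on 33474010. There was 1 library per genotype, so differences between genotypes could not be tested over replicates and carry no p-value. Values in brackets are exact 95% intervals, Poisson for counts and densities, Clopper-Pearson for shares and binomial-based for ratios, and they cover counting error only. The window of Jmjd1c held 0 peaks in KO and 0 in WT. The same was true of all 7 B cell and 5 T cell marker genes, and of 4 myeloid markers only Adgre1 held a peak, 1 in each library. A list of repressive peaks gives no expression, so it checks neither the knockout nor the cell type.

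A GABA-A receptor is usually built of α, β and γ subunits around a central pore. GABA binds where β meets α, and the γ subunit helps to hold the channel at synapses. The genes lie in clusters of α, β and γ members that arose by duplication and are used mainly by neurons. Other subunit genes of the chromosome 11 and 7 clusters lie in the 1 Mb flanks used here and were not analysed here as members, so those flanks are not free of the family.

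Among the promoters listed for the members, those of Gabra2 and Gabrb1 lay under a peak in both libraries. The RefSeq promoter table (GRCm38.p6, the assembly behind mm10) gave 10 windows of 300 bases for the 7 genes, each running from 250 bases before a start to 50 after it. KO peaks overlapped 2 of the 10 and WT peaks the same 2, against 1.25% and 1.27% of 21263 windows of coding genes, and 0.691% of those lay under peaks of both lists. With peaks within 1 kb included, 4 of the 10 had one in both lists, against 1.75%. Gabra2 and Gabrb1 are shown because peaks lay on them, Gabra4 because its start lies close to that of Gabrb1 and fell between peaks, and Gabra6 because no peak was near. Each sequence runs 5′ to 3′ along its gene, and capitals mark bases inside a peak of both libraries.
Gabra2 (chr5:71095800-71096099, minus strand): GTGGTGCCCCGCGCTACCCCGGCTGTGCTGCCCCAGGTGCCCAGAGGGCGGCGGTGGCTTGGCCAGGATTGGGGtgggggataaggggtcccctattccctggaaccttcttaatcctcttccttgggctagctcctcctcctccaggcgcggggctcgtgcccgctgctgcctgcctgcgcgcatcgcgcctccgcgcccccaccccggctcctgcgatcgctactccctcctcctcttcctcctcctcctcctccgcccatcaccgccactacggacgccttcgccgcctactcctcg
Gabrb1 (chr5:71657671-71657970, plus strand): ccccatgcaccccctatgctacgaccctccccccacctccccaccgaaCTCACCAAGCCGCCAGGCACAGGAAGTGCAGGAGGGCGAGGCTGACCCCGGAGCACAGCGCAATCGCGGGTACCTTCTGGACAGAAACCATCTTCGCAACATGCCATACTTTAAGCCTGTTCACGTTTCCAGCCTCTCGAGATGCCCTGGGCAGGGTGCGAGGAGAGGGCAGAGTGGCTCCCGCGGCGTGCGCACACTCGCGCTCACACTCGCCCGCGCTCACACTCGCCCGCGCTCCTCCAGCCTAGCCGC
Gabra4 (chr5:71658259-71658558, minus strand): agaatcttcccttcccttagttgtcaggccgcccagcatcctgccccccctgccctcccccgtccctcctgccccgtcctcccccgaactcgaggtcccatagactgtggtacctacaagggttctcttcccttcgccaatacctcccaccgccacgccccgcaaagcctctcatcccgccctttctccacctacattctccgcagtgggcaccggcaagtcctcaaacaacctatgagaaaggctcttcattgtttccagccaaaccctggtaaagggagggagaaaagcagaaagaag
Gabra6 (chr11:42321023-42321322, minus strand): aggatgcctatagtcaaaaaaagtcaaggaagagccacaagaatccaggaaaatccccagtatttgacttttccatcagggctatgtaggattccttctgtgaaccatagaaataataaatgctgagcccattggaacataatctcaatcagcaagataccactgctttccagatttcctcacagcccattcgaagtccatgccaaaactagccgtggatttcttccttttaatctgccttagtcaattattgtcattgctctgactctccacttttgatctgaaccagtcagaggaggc

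The marked promoters of Gabra2 and Gabrb1 were rich in CG. Each held 25 CG dinucleotides, a number exceeded in 22.6% of all listed windows, and their G and C content was 70% in Gabra2 and 66% in Gabrb1. The Gabra4 window held 12 CG and the Gabra6 window 2, against a median of 13 over all windows. The 147 windows with a peak in both libraries had a median of 12, so a high CG count was not a general property of marked promoters. In the Gabra2 window 74 bases lay in a KO peak and 207 in a WT peak, and in the Gabrb1 window 300 lay in a KO peak and 252 in a WT peak. The Gabra4 window lay 115 bp from the nearest KO peak and 77 bp from the nearest WT peak. That of Gabra6 was 30939 bp and 80304 bp away. REST, a repressor of neuronal genes, binds a long element, of which the parts CAGCACC and GGACAGC were searched on both strands. Neither occurred in any of the 10 member windows, against 7.24% and 6.88% of all windows, which says only that these letters are not in these windows.

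Most members carried peaks, but members were chosen with earlier results of these data known. Their excess over all coding windows is therefore a description and not a test. A peak lay in the window of 6 of the 7 in KO and of 5 in WT, against 9.76% and 9.52% of all coding windows, and 5 had peaks in both, against 7.69%. Long windows held peaks more often, and 24.5% of the 3303 coding windows of 75 to 500 kb had one in both libraries. The members' median was 4 peaks in KO and 2 in WT, or 26.7 and 21.6 peaks per Mb, where the medians of all coding genes were 0. Member windows together held 28.1 peaks per Mb in KO (19.6 to 39.1) and 24.1 in WT (16.3 to 34.4), against 8.87 and 8.70 per Mb over all coding windows. At least 10 peaks per Mb were found in 5 of the 7 in KO and in 5 in WT, against 8.54% and 8.33% of coding windows, and in 4 in both, against 6.41%.

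**Figure D1:**
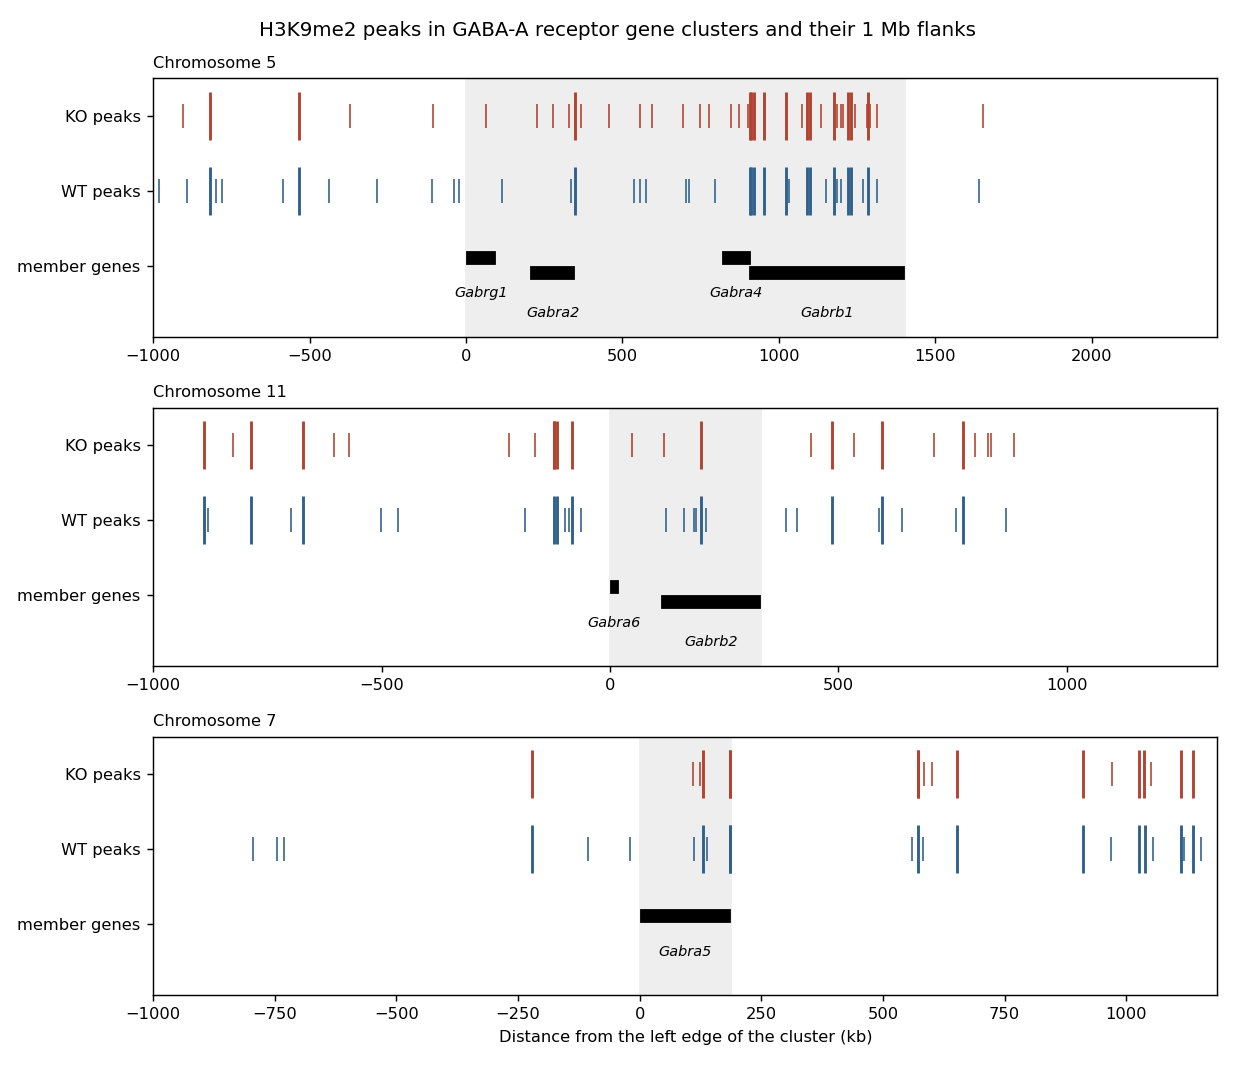
Peak positions in the clusters on chromosomes 5, 11 and 7, in kb from the left edge of each cluster, with KO peaks above WT peaks and member genes as black bars. Tall ticks are peaks overlapped by the other list, short ticks are not, and the grey area is the cluster. The series of ticks over Gabrb1, 20 in KO and 17 in WT, is the longest in any member.

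The β subunits line the pore and form part of the GABA site. Gabrb1, on the plus strand of chromosome 5 from 71657921 to 72149572, was the longest member. Its window held 20 peaks in KO (12.2 to 30.9) and 17 in WT (9.90 to 27.2), or 40.4 and 34.3 per Mb. The KO peaks covered 1.77% of the window and the WT peaks 2.04%. Both lists marked Gabrb1 at many places, in numbers whose intervals overlap. Among the 681 coding genes with windows of 248 to 991 kb, 12.3% were denser in KO and 16.7% in WT. The peaks ran from its 5′ end to 82.1% of its length in KO and 82.5% in WT. Beyond them, from 72063727 to 72387933, lay 324 kb with no peak in either list.

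Of the Gabrb1 peaks, 11 of 20 in KO and 11 of 17 in WT overlapped a peak of the other list. Some others missed it by little. A KO peak from 71947446 to 71947841 began 8 bp after a WT peak from 71946649 to 71947437. A KO peak ending at 71934323 and a WT peak starting at 71934792 were 468 bp apart. Over all members, 19 KO and 14 WT peaks were not overlapped, of which 3 and 2 lay within 1 kb of the other list. The median distance of the 19 and 14 to the other list was 7.15 kb in KO and 7.53 kb in WT.

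The strongest calls of the family all lay in the window of Gabrb1. At a q of 1e-05 or lower, 3 KO and 4 WT member peaks were left, or 8.57% and 13.3%, against 8.10% and 13.0% of the full lists. The strongest KO call, from 71700616 to 71701388, had a −log10 q of 8.59 and a pileup of 37.95 extended tags. A WT peak with a −log10 q of 10.7 and a pileup of 50.8, from 71700578 to 71701510, covered it. This site lies inside the long noncoding gene Gm38562, and began 634 bp in KO and 596 bp in WT after the second promoter window of Gabrb1. At another site, from 71659768, the KO peak had a −log10 q of 2.65 and a pileup of 30.1, and the WT peak, the strongest WT call, had 10.8 and 56.8. Pileup and q depend on the fragment length that the caller assumed, 189 bp in KO and 292 bp in WT, so their sizes are not compared between lists.

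Fold enrichment, the authors' ratio of pileup to local background, was used to rank peaks within a list. The highest member values were 4.33, 3.86 and 3.74 in KO and 3.5, 3.41 and 3.36 in WT, and all 6 of these peaks lay in Gabrb1. The KO leader, from 71978322 to 71978625, overlapped a WT peak with a fold of 2.69. The KO peak with 3.86, from 71823480 to 71823957, was 16489 bp from the nearest WT peak. The WT leader, from 72032948 to 72033650, overlapped the KO peak with 3.74 and lay on the pseudogene Gm15617, where reads may belong to a related copy, so this site is uncertain. Over all member peaks the fold ran from 2.32 to 4.33 in KO and 2.28 to 3.5 in WT. Their medians of 3.10 and 2.83 were close to the 3.08 and 2.72 of the full lists.

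Gabrb2, the β gene of chromosome 11 on the plus strand from 42419515 to 42632591, was the 1 member with more WT than KO peaks. Its window held 2 peaks in KO (0.242 to 7.22) and 6 in WT (2.2 to 13.1), and these intervals overlap. A WT lead as large was found in 2.56% of 1996 coding genes of like window length, of which 36.0% held any peak. At the single shared site a KO peak of 1276 bp, from 42503921 to 42505196, enclosed a WT peak of 545 bp. The other KO peak, from 42421720 to 42421908, began 469 bp after the third of its listed promoter windows. The last peak stood at 39.9% of the gene in KO and 44.3% in WT, so no peak was called in the remainder of Gabrb2 in either list.

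The α subunits form the other side of the GABA site and set much of a receptor's drug response. Gabra2, on the minus strand of chromosome 5 from 70958392 to 71095849, held 4 peaks in KO (1.09 to 10.2) and 2 in WT (0.242 to 7.22). The shared site lay just upstream of the gene, at 71096026 to 71096269 in KO and 71095893 to 71096597 in WT. Of the 3 other KO peaks, those at 71026835 and 71079738 were 189 bp wide, the narrowest that the KO list holds. They stood 57196 bp and 4293 bp from the nearest WT peak.

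Gabra4, also on the minus strand, from 71569734 to 71658308, had the highest KO density of the 7. Its window held 5 peaks in KO (1.62 to 11.7) and 2 in WT (0.242 to 7.22), or 54.0 and 21.6 per Mb. At the 5′ end, 2 of the KO peaks and both WT peaks lay in sequence shared with the window of Gabrb1 and are counted for both genes. The 3 peaks deeper in the gene, at 71594852, 71622879 and 71649878, were in the KO list only, 7152 to 50843 bp from the nearest WT peak. They were weak calls, with a −log10 q of 2.374, 2.439 and 2.499, against a median of 3.01 over all KO peaks. A KO lead as large was found in 0.961% of 4579 coding genes of like window length, of which only 15.5% held any peak. For the KO leads of Gabrb1, Gabrg1 and Gabra2 the share was 14.4%, 6.43% and 4.05% of the genes of their like length. The intervals of the KO and WT counts of Gabra4 overlap. At a q of 1e-05 or lower its window held 0 KO peaks and 1 WT peak, so the KO lead did not hold at that setting.

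Gabra5, on the minus strand of chromosome 7 from 57407669 to 57591016, is best known for receptors outside synapses in the hippocampus. It held 5 peaks in KO and 5 in WT (1.62 to 11.7 each), of which 3 in each list overlapped. KO peaks covered 1.13% of the window and WT peaks 1.81%. All of them lay in the 5′ part of the gene record, none beyond 41.8% of its length in KO or 40.5% in WT. The listed promoter of Gabra5 lies inside the record, at 57510010 to 57510309, and every peak of both lists lay upstream of it, the nearest 3954 bp away in KO and 6195 bp in WT. The 5′ end of the record is overlapped by a neighbouring coding gene, so peaks there cannot be assigned to Gabra5 alone.

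Gabra6, which in the brain marks cerebellar granule cells, held 0 peaks in both libraries. At 18.6 kb its window is the shortest, and a count of 0 allows up to 3.69 peaks. The γ gene Gabrg1, on the minus strand of chromosome 5 from 70751047 to 70842617, held 1 peak in KO (0.0253 to 5.57) and 0 in WT (0 to 3.69). That peak, from 70813284 to 70813659, had a pileup of 13.9 and was 50050 bp from the nearest WT peak. Gabrg1 was the 1 member with a peak in KO only, against 2.08% of coding windows, and 0 members had one in WT only, against 1.83%. Across the family, 4 members had more KO peaks, 1 more WT peaks and 2 equal numbers, against 4.45% of coding windows with more KO and 4.06% with more WT peaks. Most coding windows held no peak, so these shares say little about direction. Coding windows with more KO peaks numbered 968 and those with more WT peaks 883. A KO gain in the family is not shown by these counts.

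**Figure D2:**
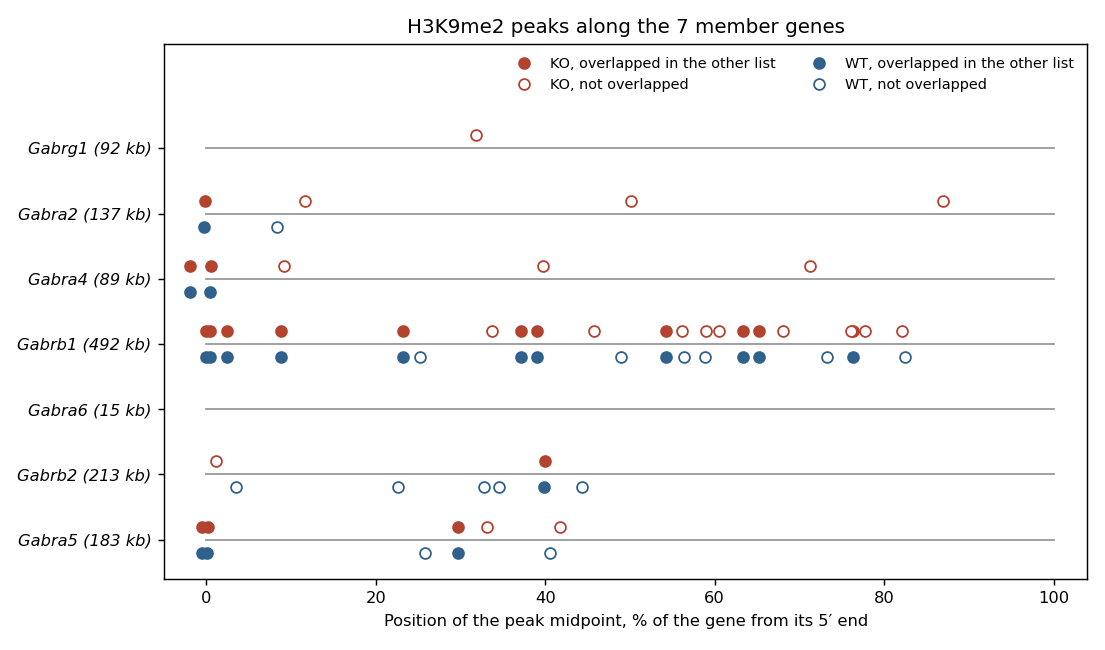
Midpoint of every peak in the member windows, as a percentage of the gene from its 5′ end, with KO points above the line of each gene and WT points below it. Filled points overlap a peak of the other list and open points do not. Filled points stand at the 5′ ends of Gabra2, Gabra4, Gabrb1 and Gabra5, and also further along Gabrb1, Gabrb2 and Gabra5. Gabra6 has no points.

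The few peaks within 2 kb of the members' 5′ ends were found in both lists. Within 2 kb of a member's 5′ end lay 5 KO and 5 WT peaks, and all of these overlapped (47.8% to 100%). Elsewhere in the member windows the share was 36.7% of KO peaks (19.9% to 56.1%) and 44.0% of WT peaks (24.4% to 65.1%), and these made up 11 of the 16 overlapped member peaks in each list. This 2 kb split was chosen after the values were seen. A KO peak of Gabrb2, 2.30 kb from its 5′ end, fell just outside the limit and was not overlapped. The peaks at the 5′ end of the Gabra5 record cannot be assigned to Gabra5 alone. Near the 5′ end of any coding gene with a known strand, 57.3% of 614 KO and 60.4% of 584 WT peaks overlapped. Of the 30396 KO and 29884 WT peaks elsewhere, 45.7% and 46.3% did. Most of these lay outside coding windows, which held 9746 KO and 9554 WT peaks. They are therefore not a like match for the rest of the member windows.

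The overlapping 5′ ends of Gabra4 and Gabrb1, whose gene bodies extend in opposite directions, carried a pair of sites in each list. The first had a pileup of 33.6 in KO, from 71657572 to 71658143, and of 41.1 in WT, from 71657719 to 71658181, and lay over the Gabrb1 promoter printed above. The second was the strong WT call at 71659768 already described, inside Gabrb1. At Gabra2 the pileup was 17.4 in KO and 22.7 in WT. At Gabra5 a site upstream of the record had 28.3 in KO and 30.5 in WT, and one just inside it had 24.3 in KO and 32.7 in WT. For scale within each list, the median pileup of all peaks was 19.1 in KO and 25.3 in WT.

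**Figure D3:**
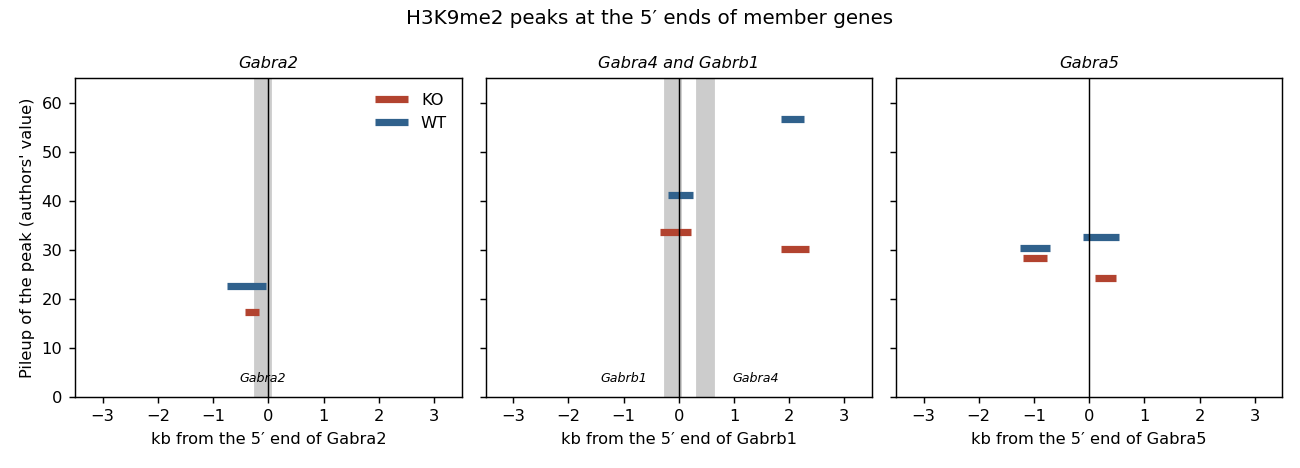
Peaks near the 5′ ends of Gabra2, of the overlapping pair Gabra4 and Gabrb1, and of Gabra5, drawn from start to end in kb from the 5′ end, with height giving the authors' pileup in KO and WT. Grey bands are listed promoter windows. Pileups run from 17.4 to 33.6 in KO and 22.7 to 56.8 in WT, and each KO bar has an overlapping WT bar.

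Along the genes, peaks were somewhat more frequent on the 5′ side of the midpoint, where lay 19 of 33 KO peaks (57.6%, 39.2% to 74.5%) and 21 of 29 WT peaks (72.4%, 52.8% to 87.3%). The WT peak from 71657719 to 71658181 lay in both Gabra4 and Gabrb1 and is counted for both, which the interval ignores. Over all coding genes the shares were 53.4% and 54.3%. Both intervals include the share of all coding genes. The members differed. On the 5′ side lay 8 of 19 KO and 9 of 17 WT peaks of Gabrb1, and 1 of 3 KO peaks of Gabra2. All peaks of Gabrb2 lay there, 2 in KO and 6 in WT, and all 4 in each list within the Gabra5 record. Those of Gabra5 lay upstream of its listed promoter, and those at the 5′ end of its record cannot be assigned to it alone.

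Set against its surroundings, the chromosome 5 cluster was dense within its genes, chiefly within Gabrb1. Member windows there held 28 KO and 19 WT peaks in 821 kb, with those shared by Gabra4 and Gabrb1 counted once. Of these, 20 KO and 17 WT peaks lay in the 496 kb window of Gabrb1. Outside that window the only WT peaks in member windows were the 2 of Gabra2. The density was 34.1 per Mb in KO (22.7 to 49.3) and 23.1 in WT (13.9 to 36.1). The sequence between the genes had 13.8 per Mb in KO (5.94 to 27.1) and 12.0 in WT (4.84 to 24.8). That sequence is not free of genes. It includes the 109 kb window of the coding gene Cox7b2, which held 3 KO and 3 WT peaks. The 1 Mb flanks had 3 in KO (1.10 to 6.53) and 6.5 in WT (3.46 to 11.1). In both lists the order was genes, sequence between them, flanks, and neighbouring steps of this order have intervals that overlap. In WT the place of the genes in this order rested on Gabrb1.

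The ratio of gene to flank density on chromosome 5 was 11.4 in KO (4.62 to 33.6) and 3.56 in WT (1.67 to 7.84). It rested on the width of the flanks: with flanks of 2 Mb it was 2.78 in KO (1.69 to 4.52) and 1.54 in WT (0.870 to 2.62). The sequence between genes was 4.58 times as dense as the 1 Mb flanks in KO (1.39 to 16.0) and 1.85 times in WT (0.625 to 4.99), and 1.12 and 0.802 times as dense as the 2 Mb flanks. The genes held 2.48 times the density of the sequence between them in KO (1.10 to 6.30) and 1.92 times in WT (0.774 to 5.41). Of the 1 Mb flanks the left held 5 KO and 12 WT peaks and the right 1 and 1, and the longest peak-free stretch, 750 kb from 72401893, lay in the right flank.

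**Figure D4:**
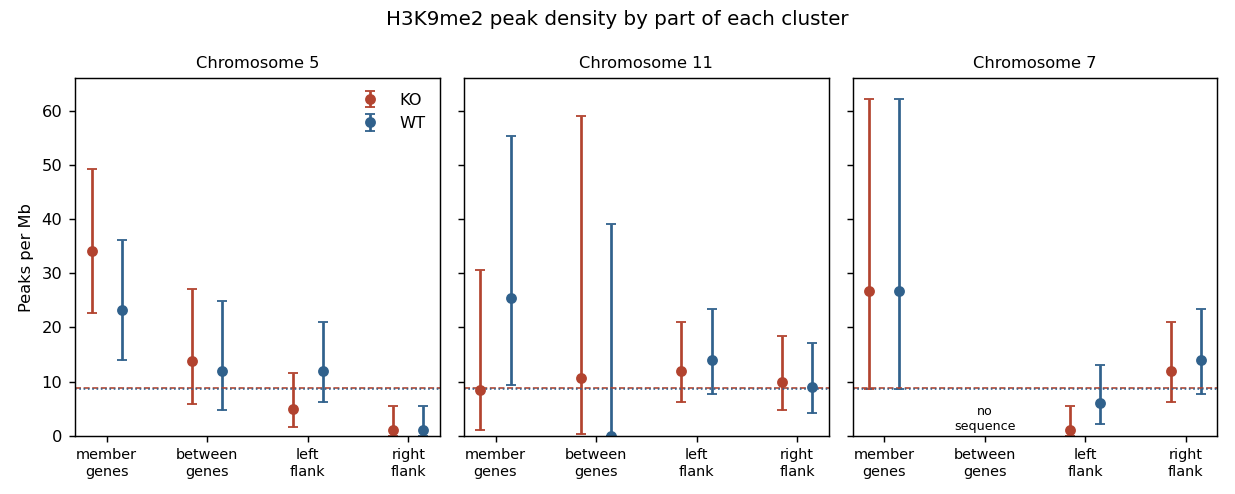
Peaks per Mb in the member windows, between them and in the left and right 1 Mb flanks of each cluster, KO left of WT, with bars for the exact Poisson interval. Dashed lines mark all coding windows, 8.87 in KO and 8.70 in WT. Member windows on chromosome 5 stand at 34.1 in KO and 23.1 in WT, while on chromosome 11 the intervals of all parts overlap.

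The chromosome 11 genes were close to their flanks in KO and above them in WT, within wide intervals. They had 8.48 peaks per Mb in KO (1.03 to 30.7) and 25.5 in WT (9.34 to 55.4), and their flanks 11 and 11.5. The ratio was 0.771 in KO (0.0879 to 3.14) and 2.21 in WT (0.737 to 5.59). Between the genes there was 1 KO peak and 0 WT peaks in 94.4 kb. With flanks of 2 Mb the WT ratio was 3.64 (1.23 to 8.95), from 6 and 28 peaks, so whether the WT density stood above the surroundings rested on the width of the flanks.

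On chromosome 7, where Gabra5 stands alone and there is no sequence between members, its 26.7 peaks per Mb in KO and in WT (8.67 to 62.3 each) compared with 6.5 and 10 in the flanks. The ratio was 4.11 in KO (1.15 to 12.3) and 2.67 in WT (0.783 to 7.33). The KO interval took in 1 with peaks merged within 5 kb, at 3.56 (0.836 to 11.7), and with gene bodies alone, at 3.12 (0.747 to 9.92). The flanks were uneven, with 1 KO and 6 WT peaks on the left and 12 and 14 on the right. Next to the gene, 373 kb from 57592263 to 57965631 held no peak in either list. Whole chromosomes 5, 11 and 7 held 11.9, 6.75 and 7.79 peaks per Mb in KO and 11.5, 6.55 and 7.90 in WT.

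The interval of the KO to WT ratio of peak numbers included equality in each cluster. The KO to WT ratio was 1.38 on chromosome 5 (0.813 to 2.39), with 36 and 26 peaks in the whole span. It was 0.5 on chromosome 11 (0.0809 to 2.34), with 3 and 6 peaks, and 1 on chromosome 7 (0.230 to 4.35), with 5 and 5. Over the member windows together it was 1.17 (0.696 to 1.97), against 1.02 over all coding windows. In the chromosome 5 flanks it was 0.462 (0.144 to 1.30).

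In the chromosome 5 cluster, all overlapped peaks lay in the member windows, nearly all in that of Gabrb1. The intervals of the shares in and between the member genes overlap. In its genes 12 of 28 KO peaks (42.9%, 24.5% to 62.8%) and 12 of 19 WT peaks (63.2%, 38.4% to 83.7%) overlapped the other list. Of the 12 in each list, 11 lay in the window of Gabrb1 and 1 at Gabra2. The contrast with the sequence between genes therefore rests mainly on Gabrb1. Between its genes 0 of 8 KO peaks (up to 36.9%) and 0 of 7 WT peaks (up to 41.0%) did so, although 1 of each lay within 1 kb of the other. Of these peaks, 3 in KO and 3 in WT lay in the window of the coding gene Cox7b2. The peaks between genes had a lower median pileup, 14.5 in KO and 17.7 in WT, against 18.3 and 24.4 in the genes, and the part of this in the sharing was not tested. Their median fold enrichment was not lower, at 3.17 in KO and 2.92 in WT, against 3.14 and 2.80 in the genes. On chromosome 11, 1 of 3 KO and 1 of 6 WT peaks overlapped. Over all member windows the share was 45.7% of KO and 53.3% of WT peaks, close to 45.9% and 46.4% of the full lists.

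Among the other genes near the clusters, Cox7b2 and Atp10b held the most peaks of those listed. Of 12 other coding genes listed in the chromosome 5 span and flanks, 2 held peaks: Cox7b2, a cytochrome c oxidase subunit gene and the only one inside the span, with 3 KO and 3 WT, and Corin with 1 and 1. On chromosome 11, 1 of 6 did, Atp10b with 6 KO and 3 WT peaks, and on chromosome 7 the 1 listed gene, Oca2, held 0 in both. With the coding genes not listed included, flank coding windows held 9 KO and 4 WT peaks on chromosome 11 and 1 and 3 on chromosome 7. Among 22 further genes of the GABA system, 5 had a peak in both libraries, against 7.69% of all coding windows, and 17 had one in neither. Among the 5 were the subunit genes Gabra3 (2 KO, 4 WT), Gabrp (1 and 2) and Gabre (1 and 1), and Gphn (1 and 1), whose product, gephyrin, anchors receptors at inhibitory synapses. The list as a whole held 3.08 peaks per Mb in KO and 5.65 in WT, below the 8.87 and 8.70 of all coding windows. None of the genes for GABA synthesis or transport in the list held a peak. Most coding windows held none either, since only 9.76% of them had one in KO and 9.52% in WT.

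The 3 of 3046 coding genes most like the chromosome 5 members, by distance in KO and WT peaks per Mb to the members' mean of 33.3 in KO and 17.5 in WT, were Sybu, Syt9 and Nova1. Sybu held 4 KO and 2 WT peaks, Syt9 6 and 3, and Nova1 4 and 2.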

How the data were processed

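H3K9me2 CUT&Tag peak lists of 2 libraries, 1 KO and 1 WT, were assigned by their genotype labels. The mm10 build is given, per the submitters' processing notes, with Bowtie2 2.4.2 and Trim Galore 0.6.6, deepTools, HOMER, MACS2, Picard and SAMtools 1.11. Per the file headers, the authors called broad peaks in each library alone with MACS2 2.2.7.1 at a q cutoff of 0.01, keeping duplicate tags and using no control library. The caller extended tags to 189 bp in KO and 292 bp in WT, which affects peak width, pileup, q and fold. The deposited pileup is a coverage signal, made in each library without reference to the other. As −log10 values the authors deposited a p-value and a q-value per peak. The deposited fold enrichment is the authors' ratio to local background.

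Peaks were assigned by midpoint to RefSeq gene windows (GRCm38.p6), and an overlap of 1 bp counted as shared. Strand was taken for 17492 of 21774 coding genes. All 7 members were found by symbol. Members and gene lists were chosen with earlier results of these data known. Named genes were the members, GABA system genes with a peak (the values of 1 are not reported here), at most 2 neighbours per cluster, the 3 genes most like the chromosome 5 members and the 3 member peaks of highest fold per list. Genes like a member in length had windows of 0.5 to 2 times its own. Intervals were computed with scipy 1.17.1 in Python 3.11.15 and tested on simulated data. Alternatives varied q, merging, width, windows, flanks, assignment, list length, peak widening, pileup and overlap.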

Additional observations from a re-analysis of the deposited data

How the results depend on the processing

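With 1 library per genotype, spread between animals is unknown and counting error alone limits each value; no depth-matched signal was analysed here. No paired analysis was possible because each genotype had 1 library. Of the cluster results under alternative settings, 161 moved by no more than their counting interval and 8 moved further. Some of the 161 could not move. Leaving out pileups of 100 or more removed no peak of the spans or 1 Mb flanks, where the highest was 97.75. Widening the KO peaks left every density ratio and peak number as it was. No ratio whose interval excluded 1 changed direction, but some others passed to the other side of 1. With 2 Mb flanks, the chromosome 5 gene to flank ratio was 2.78 in KO and 1.54 in WT, and the ratio of the sequence between genes to the flanks was 1.12 in KO and 0.802 in WT, the last below 1 in place of above it. The chromosome 11 gene to flank ratio in WT was then 3.64. At a q of 1e-05, the chromosome 5 KO to WT ratio was 0.6, from 3 and 5 peaks and so on the WT side, and 20% of its WT peaks overlapped. The chromosome 11 ratio between genes in KO, from 1 peak, ran from 0.756 to 1.25. On chromosome 7 the KO gene to flank interval took in 1 with peaks merged within 5 kb or gene bodies alone. On chromosome 11 the overlapped share was 0% in KO for peaks at least 1 kb wide, and 0% in KO and 0% in WT with a reciprocal overlap of 50%. Of single member counts, 101 stayed within their interval and 25 did not, most of them at the stricter q or at 1 kb width, where few peaks were left. Density ratios had no usable value at those 2 settings. Counting peaks within 1 kb as shared was added after seeing the data. The causes of these shifts beyond fewer peaks or longer flanks were not tested.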
